A study of Mus musculus with 15 samples.

Results

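Liver RNA of quercetin-treated mice on a high-fat diet was compared with that of mice on standard feed. The comparison takes 6 of the 15 libraries of the series, all 3 labelled quercetin (replicates 2, 5 and 8) and all 3 labelled control (replicates 1, 2 and 3), and every library was chosen by its label. All mice were wild type (WT). The control group ate standard feed for 6 weeks. Quercetin, a plant flavonol, was given by oral gavage at 200 mg/kg/day to mice that ate a high-fat diet for 6 weeks. The groups therefore differ in both diet and treatment, which cannot be told apart in this comparison. The labels do not state the composition of the diet of the quercetin group, nor the sex, strain, age, time of day or fasting state at collection, nor whether the control mice were gavaged. A difference between the groups in time of day or fasting state could not be told apart from diet and treatment either. A model group (3 libraries) ate a high-fat diet alone, which was mostly standard feed (78.8%) with lard and egg yolk powder at 10% each, plus cholesterol (1%) and sodium cholate (0.2%), and its levels are given beside those of the comparison for a few genes.

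The liver keeps the amounts of cholesterol and fat in balance through sensors of sterols and bile acids. When cholesterol is short, the transcription factor SREBP-2 turns on its synthesis. When sterols build up, the liver X receptor (LXR) turns on genes that esterify or export them. Liver metabolism also follows a daily rhythm set by a transcriptional clock, and the folding of its many secreted proteins depends on chaperones of the endoplasmic reticulum.

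Library totals were 15.99 M to 16.61 M expected counts in the controls and 16.24 M to 16.82 M with quercetin, with 14615 to 14919 genes detected. Levels below are CPM (counts per 1 M counts, on library sizes scaled with TMM factors), listed for control replicates 1, 2 and 3 and for quercetin replicates 2, 5 and 8 in that order. They are not scaled by gene length, so they are not compared between genes. The hepatocyte genes Alb, Ttr, Apoa1, Serpina1a and Cps1 were abundant in all 6 libraries, and albumin took 5.47% to 7.86% of counts. The first principal component held 47.5% of the variance and separated the groups. Control replicate 1 lay nearer to quercetin on it (-13.7) than control replicates 2 and 3 (-32.5 and -34.8), while the quercetin libraries lay between 20.0 and 34.6. Whether each library is a different animal is not stated, and p-values therefore measure only the spread between samples within groups. That spread was estimated over all 15 libraries of the series, not only these 6.

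Of 12658 genes tested, 1470 (11.6%) passed edgeR's quasi-likelihood test at a Benjamini-Hochberg adjusted p under 0.05. With quercetin 712 (5.62%) were higher and 758 (5.99%) were lower than in the controls, and 372 of the genes that passed differed at least 2-fold. The CPM ranges of the groups did not overlap for 3869 genes (30.6%), 1422 of which passed. Leaving out 1 library at a time gave 669 to 1560 genes, with 669 without control replicate 2, 708 without control replicate 3 and 777 without quercetin replicate 2. The median log2 fold change of all genes tested was 0.008, which is the level each gene list below is set beside. Counts of list members that rose or fell are likewise read against 5.62% and 5.99% of all genes. Changes below are log2 fold changes of quercetin minus control with their standard errors (SE). Lists in which many members passed covered the circadian clock, chaperones of the endoplasmic reticulum, heat shock proteins, sterol metabolism, interferon-stimulated genes and macrophage markers. No member passed among 35 ribosomal protein genes, 33 genes of the respiratory chain or 31 genes of the urea cycle and amino acid catabolism, whose medians were 0.05, 0.00 and 0.03.

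**Figure D1:**
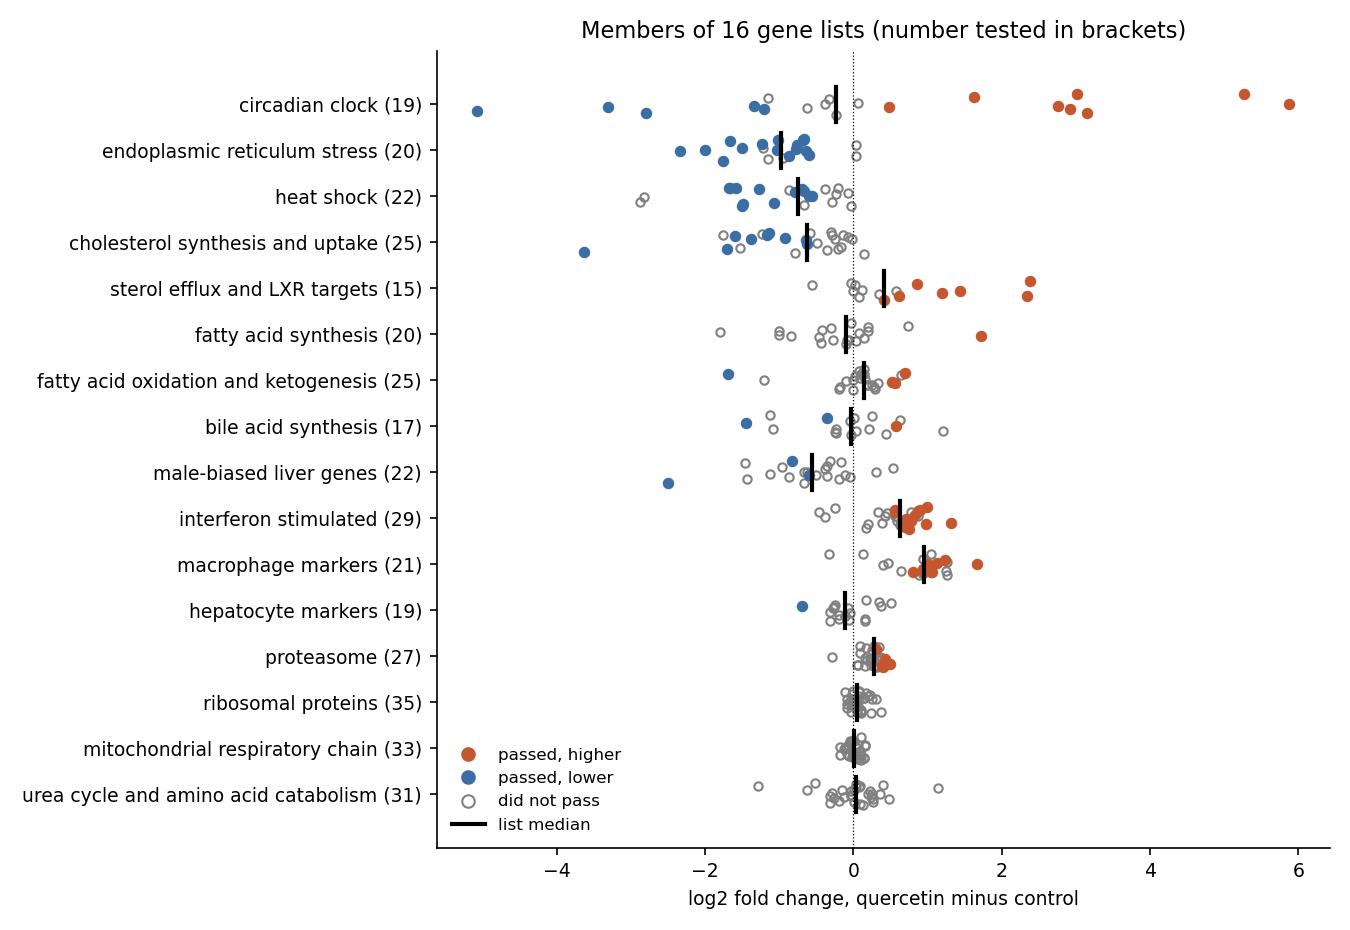
Log2 fold change (quercetin minus control, x axis) of every tested member of 16 gene lists, 1 point per gene, with filled points for genes that passed edgeR and a black bar at the list median. The endoplasmic reticulum and heat shock lists lie to the left with medians of -0.98 and -0.75, the macrophage and interferon lists to the right with 0.95 and 0.62, and clock genes reach from -5.07 to 5.88.

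Genes of the circadian clock held the largest fold changes among the lists. Of 19 clock genes tested, 8 rose and 5 fell, against 5.62% and 5.99% of all genes, and 12 of these 13 passed whichever of the 6 libraries was left out. In the clock, the proteins CLOCK (or NPAS2) and BMAL1 bind DNA elements called E-boxes and activate the Per, Cry, Nr1d1 and Dbp genes. The products of Per and Cry shut down this activation, and the receptors encoded by Nr1d1 and Nr1d2 repress Arntl, the gene for BMAL1.

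The activators stood lower with quercetin. Arntl (chr7:113178471-113314126, GRCm38.p6) was at 30.7, 22.1 and 26.5 CPM in the controls and at 3.56, 1.33 and 3.08 CPM with quercetin, a log2 change of -3.32 ± 0.28 (edgeR adjusted p = 1.46e-05). Every control library exceeded every quercetin library by a wide margin. Its partner gene Clock was at 47.98, 48.8 and 48.4 CPM in the controls and 18.6, 17.5 and 27.1 CPM with quercetin (-1.202 ± 0.15, edgeR adjusted p = 0.000264). Npas2, which can replace Clock, was at 3.296, 2.51 and 10.4 CPM against 0.222, 0.0555 and 0.185 CPM (-5.07 ± 1.01, edgeR adjusted p = 0.00958), with control replicate 3 the highest. None of these genes had overlapping groups.

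Targets of these activators, and repressors of Arntl, stood higher. Dbp (chr7:45705100-45710203), a PAR-domain transcription factor that carries the rhythm to other genes, was at 2.66, 2.83 and 1.801 CPM in the controls and 141, 163 and 126 CPM with quercetin, a log2 change of 5.88 ± 0.47 (edgeR adjusted p = 4.95e-05), or 58.7-fold. Nr1d1 (chr11:98767932-98775377), which encodes the repressor REV-ERB alpha, was at 1.46, 5.02 and 2.61 CPM and 151, 86.8 and 113 CPM (5.27 ± 0.43, edgeR adjusted p = 5.12e-05). Neither gene had a quercetin library near the control range. Its relative Nr1d2 rose by 2.92 from 9.698, 14.6 and 6.27 CPM to 80.5, 70.3 and 81.4 CPM. The transcripts of Dbp and Nr1d1 overlap genes on the other strand, and strand use in counting is not given in the sources used here. Those genes did not pass, with Sphk2 at 46.1 and 42.3 CPM (group means of control and quercetin) beside Dbp, and Thra at 16.4 and 13.8 CPM beside Nr1d1.

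Other members of the negative arm went both ways. Per3, a Period gene, was at 4.75, 6.51 and 3.42 CPM in the controls and 49.3, 42.9 and 26.2 CPM with quercetin (3.01 ± 0.33, edgeR adjusted p = 0.00018). Ciart, a repressor of CLOCK and BMAL1, rose from 1.65, 2.58 and 0.683 CPM to 11.7, 24.6 and 7.14 CPM (3.15 ± 0.54), with quercetin replicate 5 the highest. Bhlhe41, another E-box repressor, rose by 2.76 ± 0.34, and Tef, a relative of Dbp, by 1.63 ± 0.24. Cry1 took the other direction, at 47.7, 48.5 and 44.5 CPM in the controls and 4.11, 7.38 and 8.86 CPM with quercetin (-2.79 ± 0.23, edgeR adjusted p = 1.31e-05), and the closely grouped controls lay far above every quercetin library. Its paralog Cry2 rose by 0.47, the smallest change among clock genes that passed, and missed the threshold in 5 of the 6 fits with a library left out. Per1 (log2 difference -0.33 ± 0.69), Per2 (-1.15 ± 0.43), Bhlhe40 (-0.39 ± 0.35), Nfil3 (-0.63 ± 0.20), Rora (-0.24 ± 0.12) and Hlf (0.06 ± 0.14) did not pass.

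**Figure D2:**
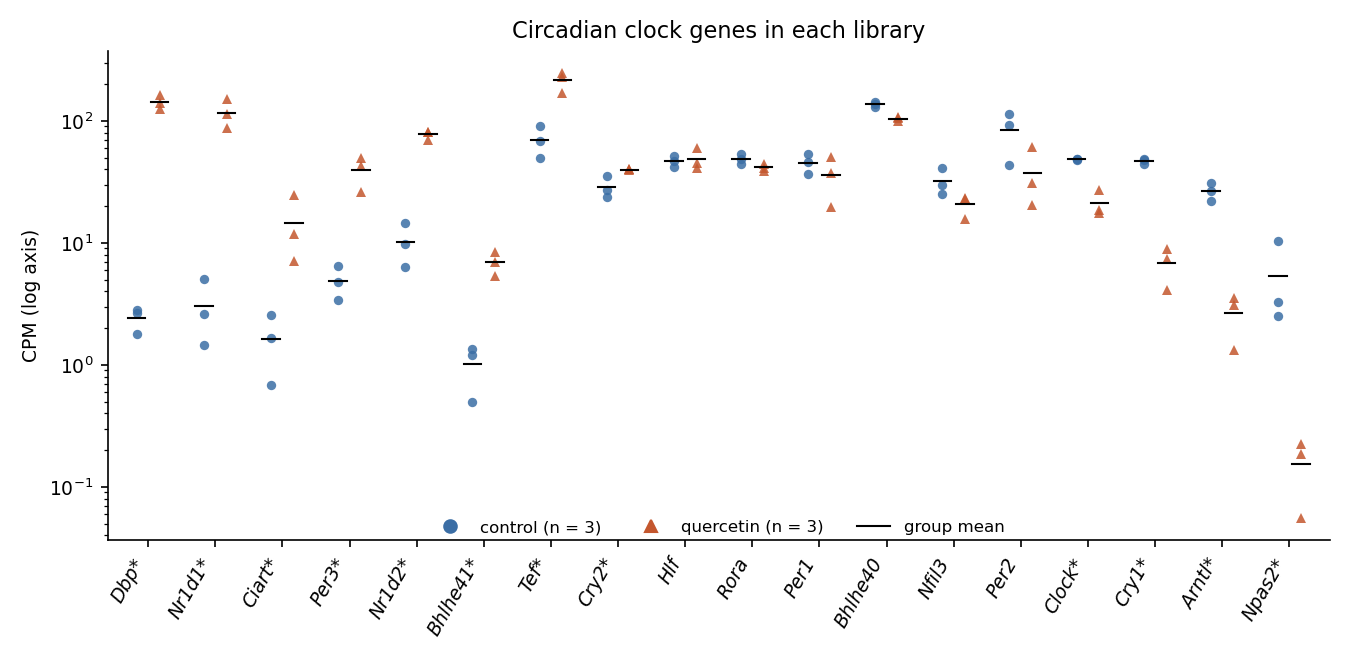
CPM of 18 of the 19 clock genes on a log axis in each control library (circles) and each quercetin library (triangles), with black bars at group means (n = 3), ordered by log2 fold change, with an asterisk at genes that passed edgeR. The groups are separated for Dbp and Nr1d1 at the left and for Cry1, Arntl and Npas2 at the right, while Hlf, Rora and Per1 overlap.

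The same genes in the model libraries, which were not part of the comparison, stood near the control levels, at 2.68 ± 0.425 CPM for Dbp, 5.95 ± 1.56 CPM for Nr1d1, 28.6 ± 2.02 CPM for Arntl and 48.2 ± 3.72 CPM for Cry1 (SD, n = 3). From the same fit, model minus control was 0.14 ± 0.55 for Dbp and 0.11 ± 0.23 for Arntl, and neither passed. Time of day at collection is not stated, so a difference in it between groups cannot be told apart from diet and treatment for these genes. Of 14 clock output genes 3 were higher and 2 lower, against 5.62% and 5.99% of all genes. Lonrf3, a ring finger protein gene, fell from 18.9, 20.2 and 15.03 CPM to 2.89, 6.83 and 3.26 CPM (-2.05 ± 0.28, edgeR adjusted p = 0.000664). Upp2, a uridine phosphorylase, was at 193, 114 and 54.04 CPM in the controls, where it spread widely, and at 590.3, 350.3 and 411 CPM with quercetin (1.902 ± 0.44). Por, the electron donor of microsomal cytochromes P450, rose by 0.84 and the cold-inducible RNA-binding protein gene Cirbp by 0.69. Upp2 passed in 4 of the 6 fits with a library left out, Cirbp in 2 and Por in 1.

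Promoter stretches of clock genes are shown because they hold the elements through which clock proteins act on each other's genes. The RefSeq promoter table (GRCm38.p6, 250 bases before to 50 after each start) held 16 of the 19 clock genes. The E-box CACGTG, read on both strands, was present for 5 of them (31.2%: Bhlhe41, Ciart, Cry1, Per1 and Tef), against 8.09% of all 27025 genes in the table. The D-box TTATGNAA, bound by DBP and TEF, was present for 2 (12.5%: Per1 and Per3), against 3.99%. The element TAGGTCA, read by REV-ERB and ROR receptors, was present for 2 (12.5%: Arntl and Nfil3), against 2.97%. Each line gives 1 match in capitals with up to 20 bases on either side, 5′ to 3′ along the gene.
Ciart: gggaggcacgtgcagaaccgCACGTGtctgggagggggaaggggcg
Bhlhe41: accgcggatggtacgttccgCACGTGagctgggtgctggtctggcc
Tef: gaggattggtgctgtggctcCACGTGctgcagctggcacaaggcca
Cry1: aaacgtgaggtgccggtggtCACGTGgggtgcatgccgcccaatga
Per3: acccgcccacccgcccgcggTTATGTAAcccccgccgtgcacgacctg
The stretches lie at chr3:95882247-95882292 on the minus strand (Ciart), chr6:145865548-145865593 on the minus strand (Bhlhe41), chr15:81802526-81802571 on the plus strand (Tef), chr10:85185089-85185134 on the minus strand (Cry1) and chr4:151044796-151044843 on the minus strand (Per3). The Ciart stretch holds a second E-box in lower case before the one in capitals. A match is a string of letters and not a measured binding site, and genes with an E-box were found among those that rose (Ciart, Bhlhe41 and Tef) and those that fell (Cry1).

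Chaperones and other genes of endoplasmic reticulum stress fell together. Of 20 members tested 15 were lower with quercetin (5.99% of all genes were lower), none was higher, and the median was -0.98. The unfolded protein response raises these genes when proteins fold poorly in the endoplasmic reticulum. The members that fell include the chaperones themselves (Hspa5, Hsp90b1, Calr, Hyou1), their cofactors (Dnajc3, Dnajb11, Sdf2l1), disulfide isomerases (Pdia3, Pdia4, Pdia6), the oxidase Ero1lb and genes of degradation from the endoplasmic reticulum (Edem1, Sel1l, Syvn1).

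Hspa5 (chr2:34772090-34776529), which encodes the main chaperone BiP, was at 957, 2407 and 2692 CPM in the controls and 702, 757 and 452 CPM with quercetin (-1.66 ± 0.35, edgeR adjusted p = 0.0122). The groups did not overlap, but control replicate 1 lay much nearer to the quercetin libraries than to the other controls. Pdia4 showed the same order, at 245, 491 and 543 CPM against 195, 187 and 160.2 CPM (-1.24 ± 0.20, edgeR adjusted p = 0.00225). Dnajc3, an inhibitor of the stress kinase PERK, was at 248, 351 and 345 CPM and 181, 179 and 189.7 CPM (-0.78 ± 0.12, edgeR adjusted p = 0.000889), the smallest p of the list. Sdf2l1 fell by 1.77 and Hsp90b1 by 1.02. Creld2 fell by 2.35 and Syvn1 fell by 2.002, and for both control replicate 1 (46.97 and 110.4 CPM) lay inside the quercetin range. Herpud1 (-1.22 ± 0.37), Manf (-1.15 ± 0.38) and Dnajb9 (-0.95 ± 0.49) did not pass, nor did the regulators Xbp1 (0.03 ± 0.12) and Atf6 (0.03 ± 0.12), whose groups overlapped.

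Control replicate 1 was the lowest control for 19 of the 20 members. The count of members that fell was 17 without control replicate 1 (median -1.27) and 12 when either of the other controls was left out (medians -0.81 and -0.77). With only the 6 libraries in the fit it was 8. Of the 15 members, 12 passed whichever library was left out. Of the integrated stress response, a neighbouring branch, 4 of 19 members were higher and 2 lower, against 5.62% and 5.99% of all genes. Ddit3, which encodes the transcription factor CHOP, fell from 16.99, 41.5 and 58.7 CPM to 7.56, 11.4 and 8.801 CPM (-2.07 ± 0.36, edgeR adjusted p = 0.00462), and Ddit4, an inhibitor of mTORC1, fell from 12.2, 14.8 and 14.5 CPM to 2.67, 5.05 and 2.22 CPM (-2.05 ± 0.35). Trib3, a pseudokinase, rose by 1.18, Vldlr by 2.14 and Eif4ebp1 by 0.47, while Atf4 differed by -0.18 ± 0.10 and did not pass. Chac1 was at 1.58, 0.966 and 1.55 CPM in the controls and 3.56, 1.94 and 11.5 CPM with quercetin (2.03 ± 0.59), highest in replicate 8, and passed in only 1 of the 6 fits with a library left out. Trib3 and Vldlr passed in 5.

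The promoters of 7 of the 15 members that fell carry one known element, and they are shown for it. The endoplasmic reticulum stress element, CCAAT and CCACG with any 9 bases between them, which ATF6 binds together with NF-Y, was found on either strand for 7 of the 16 members with a RefSeq promoter (43.8%), against 0.137% of all genes in the table. All 7 were genes that fell, as did 15 of the 20 members tested. The share describes which genes the list holds and not the comparison. Capitals mark the element, which in Calr, Creld2 and Hsp90b1 stands on the other strand and so reads as its reverse complement.
Hspa5: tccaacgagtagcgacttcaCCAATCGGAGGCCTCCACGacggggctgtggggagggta
Hsp90b1: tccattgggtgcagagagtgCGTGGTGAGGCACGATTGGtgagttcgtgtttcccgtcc
Calr: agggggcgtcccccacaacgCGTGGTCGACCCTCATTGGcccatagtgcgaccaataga
Pdia6: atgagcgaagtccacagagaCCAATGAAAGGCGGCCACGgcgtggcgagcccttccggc
Dnajc3: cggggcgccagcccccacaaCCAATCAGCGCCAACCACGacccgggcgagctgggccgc
Creld2: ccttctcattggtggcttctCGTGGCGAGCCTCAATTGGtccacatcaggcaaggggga
Syvn1: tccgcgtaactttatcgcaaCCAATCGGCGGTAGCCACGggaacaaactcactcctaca
They lie at chr2:34772005-34772063 on the plus strand (Hspa5), chr10:86705513-86705571 on the minus strand (Hsp90b1), chr8:84847055-84847113 on the minus strand (Calr), chr12:17266471-17266529 on the plus strand (Pdia6), chr14:118937807-118937865 on the plus strand (Dnajc3), chr15:88819500-88819558 on the plus strand (Creld2) and chr19:6046512-6046570 on the plus strand (Syvn1). Hsp90b1 holds a second match farther upstream, between 194 and 212 bases before the start.

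Many heat shock genes were lower as well, with a wide spread. All 22 members had a negative log2 fold change, 12 fell (5.99% of all genes were lower), and the median was -0.75. The mitochondrial chaperonin genes of the list, Hspd1 (-0.21 ± 0.13) and Hspe1 (-0.03 ± 0.15), did not pass. Hspa4l, a member of the HSP110 family, had the smallest p, at 24.8, 44.4 and 38.1 CPM in the controls and 10.6, 12.4 and 12.9 CPM with quercetin (-1.58 ± 0.16, edgeR adjusted p = 4e-05). The inducible HSP90 gene Hsp90aa1 was at 241, 522 and 432 CPM and 139, 168 and 119 CPM (-1.49 ± 0.23, edgeR adjusted p = 0.00211). Both genes had every control above every quercetin library. The constitutive HSP90 gene Hsp90ab1 fell by 0.79, the HSP40 gene Dnajb1 by 1.28 and the cochaperone gene Bag3 by 1.66.

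The HSP70 genes Hspa1a and Hspa1b, near-identical copies between which reads may be split, had the largest fold differences of the list and did not pass. Hspa1b was at 28.1, 245 and 249 CPM in the controls and 7.34, 52.7 and 10.9 CPM with quercetin (-2.87 ± 0.85, edgeR adjusted p = 0.0543), so control replicate 1 lay inside the quercetin range. Control replicate 1 was the lowest control for 19 of the 22 members, and quercetin replicate 5 the highest quercetin library for 16. Mean list levels of these libraries met, at -0.16 and -0.14 on the log2 scale relative to the 6 libraries. Leaving out control replicate 1 gave 17 members that fell, leaving out the second control 3, and leaving out the third 5. The count was 5 without quercetin replicate 2 or 8, 13 without quercetin replicate 5 and 4 with only the 6 libraries in the fit. Hspa4l, Hsp90aa1 and Hsp90ab1 passed in each of the fits with a library left out. The heat shock element, GAA, TTC and GAA with any 2 bases between each, was found for 4 of 17 members with a promoter (23.5%), against 0.662% of all genes. The 4 were Chordc1 and Hsph1, which fell, and Hspd1 and Hspe1, which did not pass and share the same matches in the stretch between their opposed starts.

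**Figure D3:**
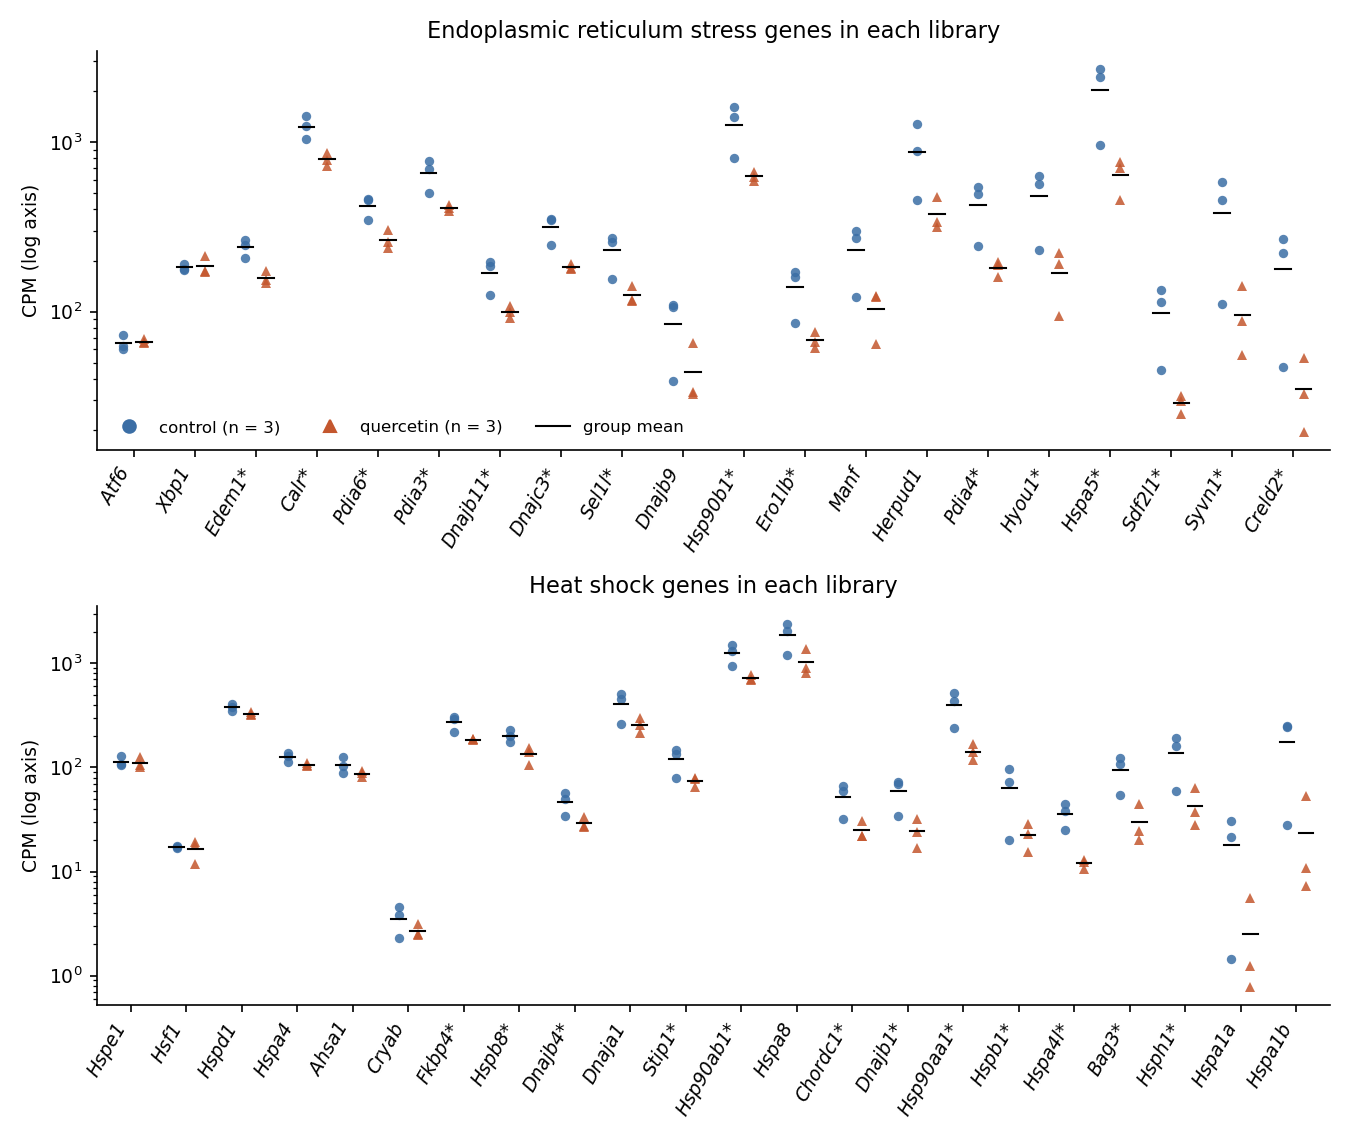
CPM on a log axis of 20 endoplasmic reticulum stress genes (upper panel) and 22 heat shock genes (lower panel) in each control library (circles) and each quercetin library (triangles), with black bars at group means (n = 3) and an asterisk at genes that passed edgeR. For most genes 1 control point, replicate 1, lies below the other controls and close to the quercetin points, as for Hspa5 at 957 CPM and Hsph1 at 59.01 CPM.

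Genes of sterol metabolism moved in opposite directions, synthesis down and efflux up. Of 25 genes of cholesterol synthesis and uptake 9 fell (5.99% of all genes were lower), none rose, and the median was -0.63. Sqle (chr15:59315092-59331193), squalene epoxidase, an early committed step of sterol synthesis, was at 50.6, 27.3 and 65.7 CPM in the controls and 4.78, 2.997 and 3.75 CPM with quercetin (-3.64 ± 0.69, edgeR adjusted p = 0.00863). Control replicate 2 was the lowest control and still lay far above each quercetin library. Tm7sf2, a sterol reductase, was at 147, 118 and 137 CPM and 52.9, 56.1 and 74.2 CPM (-1.13 ± 0.16, edgeR adjusted p = 0.000665), the smallest p of the list. Cyp51, lanosterol demethylase, was at 118, 86.6 and 131 CPM and 36.02, 30.96 and 43.4 CPM (-1.604 ± 0.26), again without overlap.

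Srebf2, the gene of the regulator SREBP-2, fell by 0.64. The other members that fell were Fdps (-1.71), Nsdhl (-1.38), Hmgcs1 (-1.17), Lss (-0.92) and Hsd17b7 (-0.63), enzymes from the mevalonate pathway to the last sterol steps. Mvd (-1.76 ± 0.53), Pmvk (-1.24 ± 0.38) and Idi1 (-1.53 ± 0.49) had similar differences and missed the threshold. Sc5d (-0.02 ± 0.17) and Stard4 (0.14 ± 0.20), a sterol carrier, lay near 0. Control replicate 2 was the lowest control for 20 of the 25 members and quercetin replicate 5 the lowest quercetin library for 19. The count that fell was 11 without control replicate 2, 4 without control replicate 3 and 5 without quercetin replicate 2 or 5, and Sqle, Tm7sf2, Cyp51 and Srebf2 passed in every fit with 1 library left out. The sterol regulatory element, ATCAC and CCAC with any base between them, was in none of the 17 members' promoters in the table and in 0.27% of all genes.

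Of 15 sterol efflux genes and LXR targets 7 rose (5.62% of all genes were higher) and none fell, with a median of 0.42. Abcg5 (chr17:84658174-84683011) and Abcg8 encode the subunits of the transporter that moves sterols into bile. Abcg5 was at 46.97, 56.8 and 45.97 CPM in the controls and 369, 143 and 245 CPM with quercetin (2.34 ± 0.35, edgeR adjusted p = 0.00259), and Abcg8 was at 48.5, 46.8 and 45.4 CPM and 331, 139 and 263 CPM (2.38 ± 0.31, edgeR adjusted p = 0.000874). The control libraries were tightly grouped and the quercetin libraries spread, with replicate 5 the lowest for both genes. The annotated Abcg5 and Abcg8 loci overlap by 6710 bases on opposite strands, so part of their reads may be shared.

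Esterification and efflux genes rose by smaller amounts. Soat2, which esterifies cholesterol in hepatocytes, was at 24.8, 24.8 and 28.1 CPM and 50.9, 46.2 and 43.2 CPM (0.85 ± 0.12, edgeR adjusted p = 0.000664). Its relative Soat1 rose by 1.43 at levels below 5 CPM, the lysosomal exporter gene Npc1 by 0.61, and the efflux transporters Abcg1 and Abca1 by 1.199 and 0.42. All but Abcg1 and Abca1 passed whichever library was left out. Mylip (0.58 ± 0.21), Pltp (-0.56 ± 0.23) and the receptor genes Nr1h3 (0.03 ± 0.11) and Nr1h2 (0.12 ± 0.09), which encode LXR alpha and LXR beta, did not pass. In the model libraries Sqle was at 3.69 ± 3.94 CPM, Abcg5 at 98.5 ± 40.02 CPM and Soat2 at 29.8 ± 4.06 CPM (SD, n = 3).

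**Figure D4:**
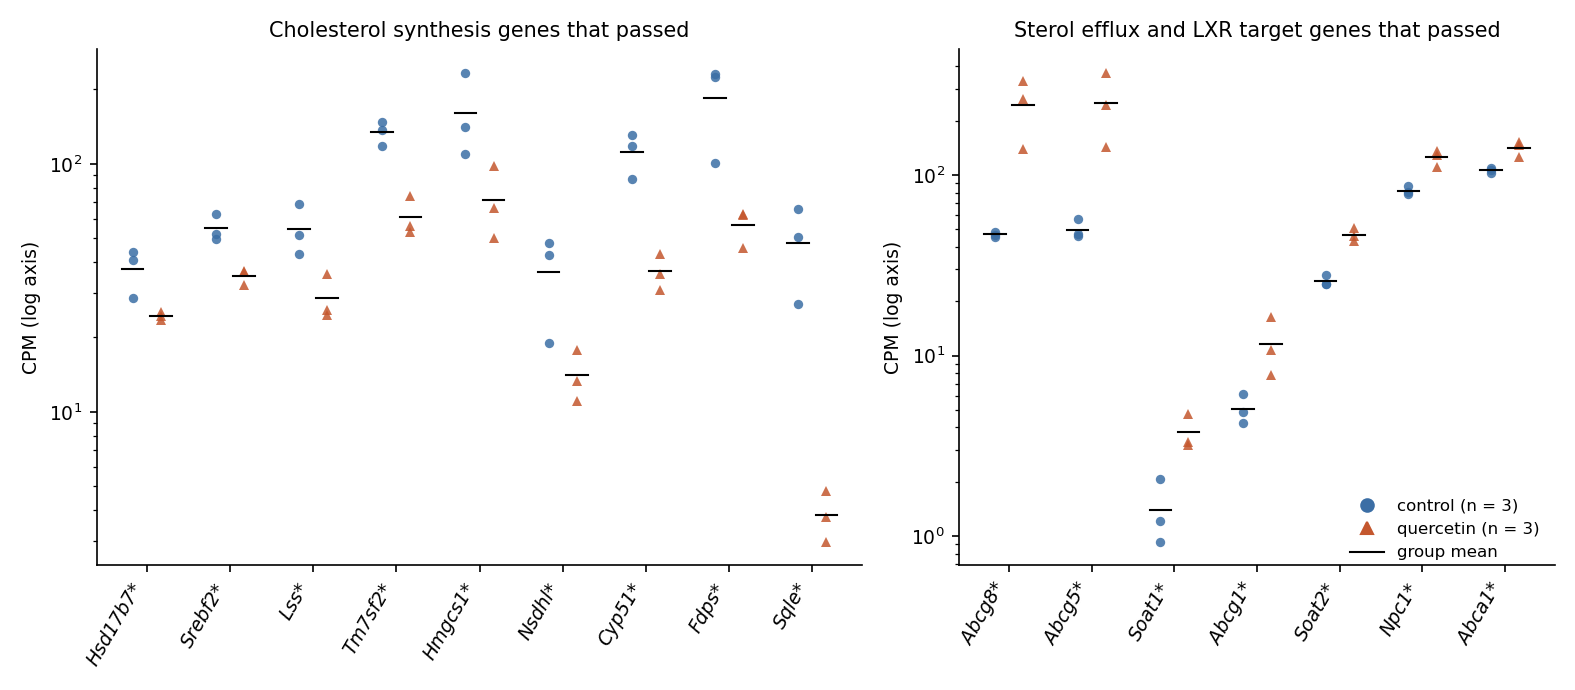
CPM on a log axis of the 9 cholesterol synthesis genes (left) and the 7 sterol efflux and LXR target genes (right) that passed edgeR, in each control library (circles) and each quercetin library (triangles), with black bars at group means (n = 3). All 16 genes have groups that do not overlap, and Sqle, Abcg5 and Abcg8 show wide gaps.

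Among fatty acid synthesis genes the regulator stood higher while the enzymes did not pass. Srebf1 (chr11:60199084-60224186), the gene of the lipogenic factor SREBP-1, rose from 128, 155 and 211 CPM to 633, 501 and 499 CPM (1.72 ± 0.17, edgeR adjusted p = 2.6e-05), with all quercetin libraries above all controls, and it was the only one of 20 members to pass. Fasn, fatty acid synthase, was at 305, 407 and 851 CPM in the controls and 517, 566 and 382 CPM with quercetin (-0.09 ± 0.37, edgeR adjusted p = 0.904). Scd1, a desaturase, was at 7337, 3150.3 and 4305 CPM and 6825, 3298 and 4989 CPM (0.03 ± 0.35, edgeR adjusted p = 0.97). The groups overlap for both, and the sign of the difference changed for both under some alternatives. Acacb (-1.800 ± 0.61), Me1 (-1.001 ± 0.31) and Acss2 (-1.005 ± 0.40) stood lower without passing, and the list median was -0.09.

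Among 21 genes of triglyceride synthesis and lipid droplets 1 rose (4.76%) and 3 fell (14.3%), against 5.62% and 5.99% of all genes. Pparg, a driver of fat storage, rose from 4.5, 3.80 and 3.35 CPM to 10.9, 11.4 and 15.9 CPM (1.71 ± 0.22, edgeR adjusted p = 0.00027). Plin5 and Plin2, which coat lipid droplets, fell by 1.06 and 0.56, and G0s2, an inhibitor of the lipase ATGL, was at 206, 187 and 203 CPM and 44.2, 78.8 and 28.2 CPM (-1.98 ± 0.55). Plin2 and G0s2 passed in only 1 of the 6 fits with a library left out. Cidec, a droplet protein that marks steatosis, was below 1.1 CPM in every library and did not pass (1.29 ± 0.69).

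Fatty acid handling changed in single genes. Of 15 uptake and binding genes 4 rose and 1 fell, against 5.62% and 5.99% of all genes. Fabp1, the main fatty acid-binding protein of hepatocytes, was at 1858, 1663 and 1720.0 CPM and 2581, 2637 and 3189.6 CPM (0.68 ± 0.13, edgeR adjusted p = 0.00475). Lpl, lipoprotein lipase, rose by 1.78, Fabp2 rose by 0.80, and Acsl1, which activates long-chain fatty acids, fell by 0.62. Cd36 (0.96 ± 0.46) did not pass. Of 25 genes of oxidation and ketogenesis 3 rose (12%) and 1 fell (4%), against 5.62% and 5.99% of all genes. Those that rose were the thiolases Acaa1a (0.55) and Acaa1b (0.69) and Bdh1 (0.51), a ketone body dehydrogenase. The gene that fell was the pyruvate dehydrogenase kinase Pdk4 (-1.69). Cpt1a, the entry step of mitochondrial oxidation, differed by 0.24 ± 0.12 (edgeR adjusted p = 0.193). Of 16 PPAR alpha target genes 1 rose (Vnn1, 1.33) and 1 fell (Crat, -0.66), shares near the 5.62% and 5.99% of all genes. With 1 library left out at a time, Vnn1 and Crat passed in 1 of 6 fits, Pdk4 in 3 and Lpl in 5.

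Glycogen genes were among the clearest of the 23 glucose genes, of which 3 rose and 2 fell. Ppp1r3b, which targets protein phosphatase 1 to glycogen, was at 755, 699.7 and 683 CPM in the controls and 174, 227 and 129.6 CPM with quercetin (-2.01 ± 0.32, edgeR adjusted p = 0.00288). A second targeting subunit, Ppp1r3c, was at 152, 84.1 and 112 CPM and 43.5, 23.9 and 40.5 CPM (-1.69 ± 0.31). Gys2, liver glycogen synthase, went the other way, by 0.62. Igfbp1, a secreted binding protein repressed by insulin, rose from 5.58, 9.34 and 4.04 CPM to 82.5, 39.9 and 36.00 CPM (3.07 ± 0.58, edgeR adjusted p = 0.00854), with quercetin replicate 2 the highest. The lipoprotein list had 1 of 19 higher, the sorting receptor Sort1 (1.05), and 1 lower, Apoa4 (-1.06), which passed in 2 of the 6 fits with a library left out. These lipoprotein shares, 5.26% each way, lay near the 5.62% and 5.99% of all genes.

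Of 17 bile acid synthesis genes 1 rose (5.88%) and 2 fell (11.8%), against 5.62% and 5.99% of all genes. Cyp8b1 (chr9:121914356-121916305), the hydroxylase needed for cholic acid, was at 611, 449 and 415 CPM in the controls and 119, 253 and 168 CPM with quercetin (-1.45 ± 0.23, edgeR adjusted p = 0.00199), with no overlap, and it passed whichever library was left out. In the model libraries it was at 502 ± 37.4 CPM (SD, n = 3). Akr1c6, a hydroxysteroid dehydrogenase of the same list, rose by 0.58 and Baat, which conjugates bile acids, fell by 0.36. Cyp7a1, the rate-limiting enzyme of bile acid synthesis, was at 140.3, 26.99 and 24.9 CPM in the controls and 190.1, 177 and 76.3 CPM with quercetin (1.205 ± 0.63, edgeR adjusted p = 0.242). Control replicate 1 stood far above the other controls for this gene and inside the quercetin range. Abcc2, an exporter of bile, rose by 0.51 as the only one of 14 transport genes to pass. Among the 6 fits with a library left out, Akr1c6 passed in 3, Baat in 2 and Abcc2 in 1.

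Male-biased liver genes differed widely within the quercetin group. Of 22 members 3 fell (5.99% of all genes were lower) and none rose, with a median of -0.56. Quercetin replicate 8 was the highest quercetin library for 21 of the 22 members and lay at a mean level of 0.45 on the log2 scale relative to the 6 libraries, inside the control range of 0.38 to 0.54, while quercetin replicates 2 and 5 lay at -1.23 and -0.53. Without quercetin replicate 8, 11 members fell and the median was -0.93, and without control replicate 3 only 1 fell. Elovl3, a fatty acid elongase, was at 765, 318 and 626 CPM in the controls and 90.1, 44.1 and 166 CPM with quercetin (-2.51 ± 0.42, edgeR adjusted p = 0.00448), lower in all 3 libraries. Mup7, a major urinary protein gene, was at 21302, 24694 and 17826 CPM and 292, 3739 and 19086 CPM (-1.47 ± 0.94, edgeR adjusted p = 0.34), so quercetin replicate 2 held little and replicate 8 as much as a control. Reads of Mup genes, and of Cyp4a genes, may be divided among near-identical copies. The complement gene C6 fell by 0.60 and Cyp4a12b by 0.83. Of 18 female-biased genes listed, 9 had too few counts to be tested, and 1 of the 9 tested rose. It was Cyp2b9, at 0, 0.129 and 0 CPM in the controls and 1.83, 2.497 and 0.123 CPM with quercetin, where replicate 8 was within the control range. Stat5a, a mediator of growth hormone action, fell by 0.58, the only one of 13 growth hormone axis genes to pass. In the fits with a library left out, C6 passed in 4 of 6, Stat5a in 3, and Cyp4a12b and Cyp2b9 in 1.

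Macrophage markers were higher with quercetin. Of 21 markers tested 9 rose (5.62% of all genes were higher), none fell, and the median was 0.95. The groups did not overlap for 17 of the 21, against 30.6% of all genes. Clec4f, a Kupffer cell lectin, was at 41.3, 58.3 and 32.6 CPM in the controls and 86.8, 96.7 and 92.6 CPM with quercetin (1.06 ± 0.17, edgeR adjusted p = 0.00199). Cd5l, a protein secreted by macrophages, was at 27.5, 33.5 and 18.4 CPM and 82.8, 79.1 and 90.4 CPM (1.67 ± 0.42, edgeR adjusted p = 0.0284). All quercetin libraries stood above all controls for both. Cd68 and C1qc, the gene of a complement C1q chain, rose by 1.24 and 1.13, and C1qa, C1qb, Csf1r, Vsig4 and Mrc1 rose by 0.80 to 1.04. In the model libraries Clec4f was at 78.4 ± 7.14 CPM and Cd68 at 6.08 ± 1.65 CPM (SD, n = 3). C1qc was at 33.2 ± 5.54 CPM there and Mrc1 at 25.25 ± 4.705 CPM. Quercetin minus model was 0.23 for Clec4f, 0.25 for Cd68, 0.35 for C1qc and -0.18 for Mrc1, and none passed. Model minus control was 0.83, 0.98, 0.78 and 0.98 in that order, and all but C1qc passed.

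The summed level of the macrophage markers was 284 to 354 CPM in the controls and 564 to 640.0 CPM with quercetin. In bulk liver, more cells of a type and more RNA per cell cannot be told apart. Control replicate 3 was the lowest control for 17 of the 21 markers, and 5 rose without it. Clec4f, Cd68, C1qa, C1qc and Vsig4 passed whichever library was left out. Adgre1 (1.25 ± 0.58), Marco (1.26 ± 1.20) and Lyz2 (0.64 ± 0.35) did not pass, nor did Ccr2 (0.40 ± 0.44) and Ly6c2 (0.47 ± 0.45), markers of recruited monocytes, or Trem2 (0.94 ± 0.48) and Spp1 (0.13 ± 0.44). Of other marker lists, 2 of 18 endothelial genes rose (Stab2, 0.62, and Cdh5, 0.70), against 5.62% of all genes. In the neutrophil list 2 of 6 tested genes rose (S100a9, 2.11, and S100a8, 2.103) at levels below 5 CPM. The other 8 of the 14 neutrophil genes listed, Ly6g among them, had too few counts to be tested. In the T and natural killer cell list 1 of 14 rose (Gzmb), and in the B cell list 1 of 8 (Cd79b), both under 2.1 CPM. Medians of the neutrophil, T and natural killer cell and B cell lists were 0.93, 0.83 and 1.3, beside 0.95 for macrophage markers. Log2 fold changes were positive for 6 of 6, 12 of 14 and 8 of 8 members. Summed levels of each of these lists were at most 32.6 CPM in any of the 6 libraries. Summed hepatocyte markers ranged from 148200 to 167600 CPM in the controls and from 137400 to 154000 CPM with quercetin. Of 19 stellate and matrix markers and 8 cholangiocyte markers 1 each fell (Lum, -0.89, and Sox9, -1.81). With 1 library left out at a time, S100a9 and Sox9 passed in all 6 fits, S100a8 in 3, Stab2, Cdh5, Gzmb and Cd79b in 2, and Lum in 1.

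Interferon-stimulated genes were modestly higher. Of 29 members 13 rose (5.62% of all genes were higher), none fell, and the median was 0.62. The groups did not overlap for 20 members, against 30.6% of all genes. Isg15, a ubiquitin-like antiviral protein, was at 6.59, 7.92 and 6.65 CPM in the controls and 14.5, 14.2 and 12.99 CPM with quercetin (0.98 ± 0.14, edgeR adjusted p = 0.0007). Every quercetin library lay above every control. The RNA sensors Ddx58, Dhx58 and Ifih1 rose by 0.75, 0.78 and 0.57. The oligoadenylate synthetase genes Oas1a, Oas2 and Oasl2 rose by 0.90, 0.73 and 0.70. Irf7 (0.74 ± 0.24) and Irf9 (0.38 ± 0.13) did not pass, and Stat2 (-0.38 ± 0.12), Cmpk2 (-0.47 ± 0.18) and Rsad2 (-0.25 ± 0.30) had negative differences. Control replicate 3 was the lowest control for 19 of the 29, and the count that rose was 6 without control replicate 2 or 3 and 15 without control replicate 1. Only 4 members, Isg15, Ddx58 and Rtp4 among them, passed in all 6 of the fits with a library left out. The macrophage markers, 20 of 21 with a positive log2 fold change, moved in the same direction, and their part in the interferon result was not tested.

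Promoters of 3 members that rose are shown with the interferon-stimulated response element in capitals, GAAA and GAAA with any 2 bases between them, through which STAT and IRF factors act. It was found on either strand for 14 of 23 members with a promoter (60.9%), against 3.99% of all genes in the table. Of the 14, Ddx58, Ifih1, Ifit3, Isg15 and Oas1a rose, and the other 9 (Bst2, Gbp2, Gbp3, Ifit1, Ifit3b, Igtp, Oas3, Rsad2 and Stat2) did not pass.
Isg15: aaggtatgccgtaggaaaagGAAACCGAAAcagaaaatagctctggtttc
Ifit3: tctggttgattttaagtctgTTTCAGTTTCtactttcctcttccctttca
Oas1a: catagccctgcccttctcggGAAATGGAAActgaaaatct
They lie at chr4:156200861-156200910 on the minus strand (Isg15), chr19:34583387-34583436 on the plus strand (Ifit3) and chr5:120907526-120907565 on the minus strand (Oas1a), and the element of Ifit3 is on the other strand. In Isg15 and Oas1a further matches overlap the one in capitals.

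A few genes of protein breakdown and antigen processing were higher. Of 27 proteasome genes 5 rose (5.62% of all genes were higher), none fell, and 26 had a positive log2 fold change (median 0.27). Psma7, a core subunit, was at 78.4, 81.9 and 83.6 CPM and 96.2, 104 and 122 CPM (0.40 ± 0.10, edgeR adjusted p = 0.0215). Psma1, Psmb3, Psma4 and Psmd3 rose by 0.49, 0.42, 0.38 and 0.31. Quercetin replicate 8 was the highest library for each of these genes, and without it no proteasome gene rose and 1 fell. None rose without control replicate 2 or 3, or with only the 6 libraries in the fit, and 2 rose without control replicate 1, so that none of the 5 passed in all of these fits. The immunoproteasome subunits Psmb10, at 26.6, 22.1 and 23.4 CPM and 44.1, 43.1 and 47.2 CPM (0.90 ± 0.11, edgeR adjusted p = 0.00017), and Psmb9 (0.94) rose, and so did Nlrc5 (0.84), an activator of class I antigen presentation. Psmb9 and Nlrc5 were the only ones of 16 antigen presentation genes to pass (12.5% higher, against 5.62% of all genes). Nlrc5 passed in 4 of the 6 fits with a library left out. Of 26 lysosomal genes 4 rose (15.4%) and 1 fell (3.85%), against 5.62% and 5.99% of all genes. Among those that rose was Ctss, a protease of antigen-presenting cells (0.84). The gene that fell was Lipa (-0.40), which hydrolyses cholesteryl esters. The lysosomal median was 0.08, and Lipa passed in 2 of the 6 fits.

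**Figure D5:**
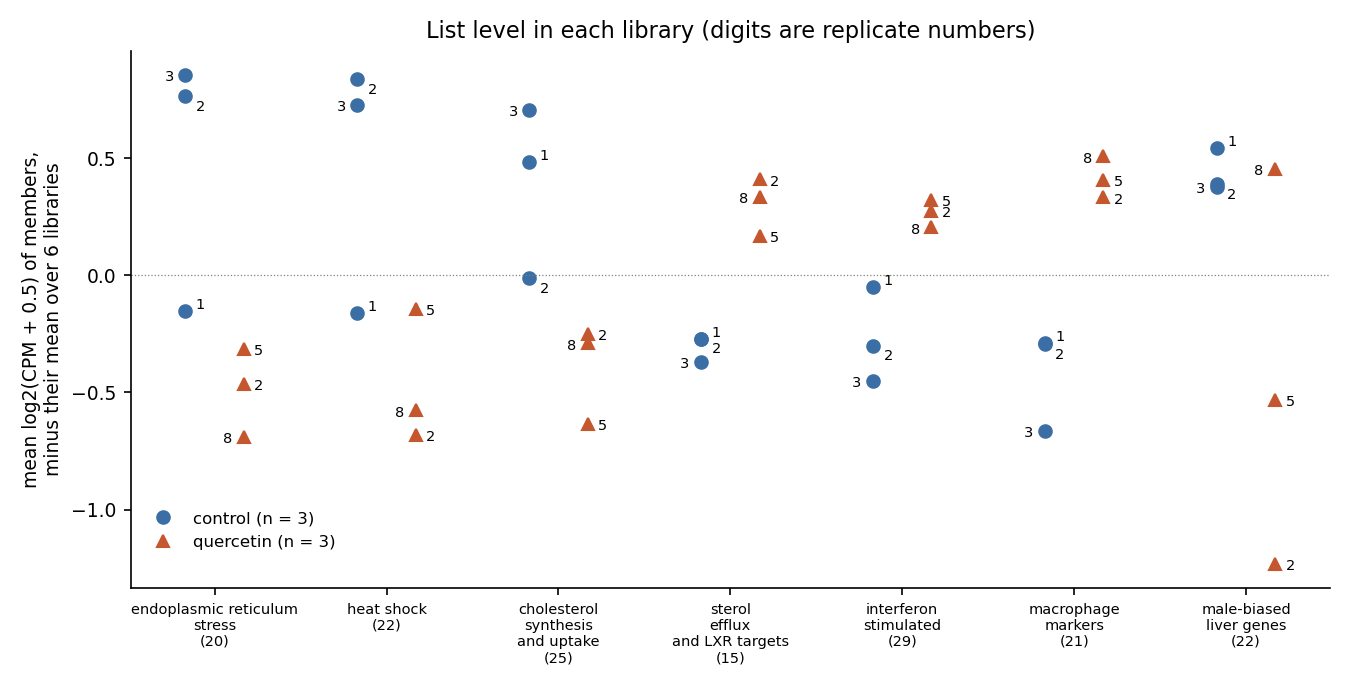
Mean log2(CPM + 0.5) of the tested members of 7 lists in each library, minus the mean over the 6 libraries (y axis), with controls as circles, quercetin libraries as triangles and replicate numbers beside the points. The groups separate for the endoplasmic reticulum, cholesterol, sterol efflux, interferon and macrophage lists. Control 1 meets quercetin 5 in the heat shock list and quercetin 8 lies among the controls in the male-biased list.

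Single genes outside these groups had some of the smallest p-values. Cdkn1a, the cell cycle inhibitor p21, was at 40.5, 39.4 and 31.8 CPM in the controls and 2.83, 1.22 and 1.11 CPM with quercetin (-4.42 ± 0.32, edgeR adjusted p = 7.51e-06), and at 9.495 ± 1.66 CPM in the model libraries (SD, n = 3). Every control library stood far above every quercetin library. Slc30a10, a manganese exporter, was at 86.8, 83.9 and 103 CPM and 30.01, 25.03 and 30.03 CPM (-1.69 ± 0.12, edgeR adjusted p = 9.82e-07), and Lgalsl, a galectin-like gene, was at 26.7, 28.6 and 28.3 CPM and 7.503, 5.88 and 7.51 CPM (-2.001 ± 0.14, edgeR adjusted p = 9.82e-07). For both the libraries of each group agreed closely. Lgalsl stood at 28.7 ± 1.398 CPM in the model libraries.

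Further genes that fell were Lrfn3 (-2.13 ± 0.19), Nedd4l, a ubiquitin ligase (-1.56 ± 0.15), Slc45a3 (-1.64 ± 0.16) and the histone gene H3c14 (-4.23 ± 0.70), which had no counts in quercetin replicates 2 and 8. Genes that rose were Adam11, from 11.5, 10.9 and 7.64 CPM to 128, 79.4 and 80.7 CPM (3.26 ± 0.41), the lectin-like gene Clec2h, at 15.1, 2.66 and 26.5 CPM with quercetin (4.48 ± 1.00), the urate transporter gene Slc2a9 (1.08 ± 0.11) and Nr3c2, the mineralocorticoid receptor (1.25 ± 0.15). Of these genes Clec2h missed the threshold in 2 of the 6 fits with a library left out, and the others passed in all 6.

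Hormone, metal and detoxification lists held small counts of genes that passed, in some lists above the share of all genes. Of 17 glucocorticoid-responsive genes 2 fell (11.8%, against 5.99% of all genes), Cdkn1a and Zbtb16. Zbtb16, a transcription factor, was at 77.6, 122 and 83.1 CPM in the controls and 41.02, 47.3 and 19.9 CPM with quercetin (-1.38 ± 0.27, edgeR adjusted p = 0.00797). Of 8 genes of metallothioneins and zinc transporters 2 fell (25%), Slc30a10 among them, and none rose. The metallothionein Mt1 was at 7.23, 11.1 and 2.795 CPM and 48.4, 39.1 and 7.57 CPM (2.17 ± 0.85, edgeR adjusted p = 0.122), higher in quercetin replicates 2 and 5 and inside the control range in replicate 8. Of 23 iron and heme genes 4 fell (5.99% of all genes were lower). They include Smad7 (-1.48) and Id1 (-2.07), targets of BMP signalling, and Hjv (-0.61), a BMP coreceptor. The iron hormone gene Hamp did not pass (-0.42 ± 0.21). Smad7 passed in all 6 fits with a library left out, Id1 in 4 and Hjv in 1.

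Of 30 NRF2 and glutathione genes 3 rose (10%, against 5.62% of all genes), Gstm4 (0.99), Gss (0.42) and Gstm1 (0.58). Gstm reads may be shared between close relatives. Cyp1a1, the best-known target of the aryl hydrocarbon receptor, was at 1.14, 1.16 and 0.994 CPM and 1.28, 1.498 and 2.22 CPM (0.59 ± 0.29, edgeR adjusted p = 0.202), and 1 of 8 genes of that list fell, Arnt (-0.43). Of 21 glucuronidation and sulfation genes Ugt1a9 fell from 60.9, 140.1 and 94.5 CPM to 32.7, 20.1 and 17.3 CPM (-2.07 ± 0.36) and Sult1c2 rose by 0.94. At 4.76% each way, these shares lay near those of all genes. Of 24 nuclear receptors and hepatocyte factors 2 fell (8.33%, against 5.99% of all genes) and none rose. Hnf4a, a nuclear receptor that maintains hepatocyte identity, fell by 0.69 and was at 864, 1154 and 843 CPM and 522, 693 and 561 CPM, with no overlap. Of 29 acute phase genes 1 rose, Orm3 (1.42), and 1 fell, Serpina3k (-0.62), or 3.45% each way against 5.62% and 5.99% of all genes. With 1 library left out at a time, Gstm4, Ugt1a9 and Hnf4a passed in all 6 fits, Arnt in 5, Serpina3k in 4, Gss and Sult1c2 in 3, Orm3 in 2 and Gstm1 in 1.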

How the data were processed

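Liver RNA-seq of 15 libraries in 5 groups of 3 was deposited as 1 table of the whole series. The expected counts per gene used here are the authors' deposited values, in a read count column per the file headers, and 5.37% of them were not whole, so they were rounded. The submitters' processing notes name HISAT2 2.1.0, Bowtie2 2.3.4.3, RSEM 1.3.1, DESeq2 1.4.5 and the build GRCm38.p6, without their order. The FPKM and TPM columns (30 in all) were not used. Strand use in counting is not given in the sources used here, and reads of near-identical genes may be split between copies. Of 143 named genes with a position, 23 overlap a tested gene on the other strand, so part of their reads may be shared. Besides those given above they include Psmb10 (with Slc12a4), Cyp51 (with Akap9) and Ddx58 (with Aco1). Slc12a4, Akap9 and Aco1 did not pass.

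Of 16809 genes, the 12658 kept by filterByExpr were fitted with edgeR 4.0.16 in R 4.3.3 (TMM factors, robust quasi-likelihood test, 1 mean per group, all 15 libraries, 10 residual degrees of freedom). P-values were adjusted by Benjamini-Hochberg over all genes, with a threshold of 0.05. The median SE of a log2 fold change was 0.16, so a typical 95% interval reached 0.34 to either side. The script was tested on simulated counts. List means in each library used log2(CPM + 0.5).

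The comparison and the 51 gene lists were chosen with earlier results of these data known. The rule for named genes took 18 set genes, the 8 largest changes and the 8 smallest p-values in each direction among non-overlapping genes of at least 5 CPM, up to 4 passing members per direction of each list, the member with the smallest p where none passed, and all passing transcription factors of the clock and hepatocyte lists. Other list members in the text, Hspa5 and most genes that did not pass among them, and the motifs were chosen after their values were seen. Alternatives were other scalings, filters and tools (DESeq2 1.42.0, limma 3.58.1), only the 6 libraries, and each library left out. Some genes that the rule takes are not reported here.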

Additional observations from a re-analysis of the deposited data

How the results depend on the processing

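Depth was even across the 6 libraries, so precision was limited by 3 libraries per group. The number of genes that passed was 1454 with RLE factors, 1467 with upper-quartile factors, 1271 without a filter, 1481 with at least 1 CPM in 3 libraries, 1497 without the robust option, 1385 with limma-voom and 1763 with DESeq2, of which 1457 were among the 1470. With only the 6 libraries in the fit it was 768 (380 higher and 388 lower), 714 of them among the 1470, with 8 endoplasmic reticulum stress and 4 heat shock members lower. With 1 library left out at a time the total was 669 to 1560 (301 to 724 higher, 368 to 836 lower). The same fits gave 12 to 17 endoplasmic reticulum stress, 3 to 17 heat shock and 4 to 11 cholesterol members lower, and 5 to 7 sterol efflux, 6 to 15 interferon and 5 to 9 macrophage members higher. Of the 137 named genes that passed, 77 passed in all 6 of these fits and 60 were lost in at least 1.

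Fasn (-0.09) turned to 0.027 with limma-voom, to 0.455 without control replicate 3 and to 0.056 without quercetin replicate 8, and ranged from -0.365 to 0.455 with 1 library left out. Scd1 (0.03) turned to -0.21 without control replicate 2, to -0.059 without control replicate 3 and to -0.251 without quercetin replicate 2, and ranged from -0.251 to 0.433. The cause was not tested. No paired analysis was possible because the control and quercetin groups share only replicate number 2.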

Other observations

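Some groups not described above held single changes. Of 19 chemokines and their receptors 3 rose (15.8%, against 5.62% of all genes) and none fell. Among them Cxcr4 rose by 1.42 ± 0.34 (edgeR adjusted p = 0.0138) and Ccl6 by 1.11. Cxcr4 was near the floor, at 0.444, 0.451 and 0.311 CPM in the controls and 1.11, 1.22 and 0.923 CPM with quercetin. Ccl6 was below 8 CPM in every library. With 1 library left out at a time Cxcr4 passed in 5 of 6 fits and Ccl6 in 3. Of 22 immediate early genes, Junb rose from 17.6, 19 and 19.9 CPM in the controls to 35.8, 30.7 and 40.2 CPM with quercetin (0.92 ± 0.24, edgeR adjusted p = 0.0254). Its relative Jun took the other direction, at 24.1, 24.3 and 40.3 CPM in the controls and 12.1, 15.8 and 11.8 CPM with quercetin (-1.16 ± 0.29, edgeR adjusted p = 0.0216), and Ier5 fell by 0.83. Of the immediate early list 4.55% rose and 9.09% fell, against 5.62% and 5.99% of all genes. The groups did not overlap for either AP-1 gene, but with 1 library left out at a time Jun passed in 3 of 6 fits, Ier5 in 2 and Junb in 1.

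Of 33 complement and coagulation genes the C1q chains C1qa, C1qb and C1qc, which are also macrophage markers, rose, and the terminal components C6 and C8b fell by 0.60 and 0.43. These shares were 9.09% higher and 6.06% lower, against 5.62% and 5.99% of all genes. Tbx3, a transcription factor of pericentral hepatocytes, was at 68.1, 35.0 and 55.5 CPM in the controls and 29.4, 31.3 and 23.0 CPM with quercetin (-0.92 ± 0.26, edgeR adjusted p = 0.0377), the only one of 16 pericentral genes to pass. Car3, a carbonic anhydrase in the adipocyte list that hepatocytes also express, rose by 0.79, the only one of 7 adipocyte genes to pass. With 1 library left out at a time, C1qa and C1qc passed in all 6 fits, C6 in 4, C8b in 3, and C1qb, Tbx3 and Car3 in 1.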
